A study of Mus musculus with 48 samples.

Results

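The 10 genes described here encode matricellular proteins: osteopontin (Spp1), tenascin-C (Tnc), periostin (Postn), the thrombospondins Thbs1, Thbs2 and Thbs4, Sparc, Cthrc1, and the CCN proteins Ccn1 and Ccn2. They were chosen by name, with earlier results of these data known. The shares of all genes given beside their counts below are thus for scale and are not a test of the set. All 10 were found among the 18782 genes of the count table and passed the filter on low counts that left 14431 genes for testing. RNA came from the thoracic aorta of 48 wild-type C57BL/6J mice, with 1 library per mouse. MaCon and FeCon were males and females given normal drinking water (n = 10 each), and all other mice had received 0.4% β-aminopropionitrile (BAPN), an inhibitor of the enzymes that cross-link collagen and elastin, over 28 days, starting when they were 3 weeks old, and it was dissolved in the water they drank. MaNonAD (n = 4) and FeNonAD (n = 8) were treated mice without a lesion, and MaAAD (n = 7) and FeAAD (n = 9) were treated mice with aortic dissection or aneurysm, which the labels do not separate. Only mice alive at the end were sampled, and the paper reports more deaths from aortic rupture in treated males than in treated females. The treated groups of the sexes were thus survivors of unequal losses. The tissue was taken as a whole and held RNA of fat as well as of the vessel wall. Fewer cells of a type and less RNA per cell therefore cannot be told apart in any value below.

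Matricellular proteins are secreted into the extracellular matrix but do not form its fibres. They bind matrix, growth factors and cell-surface receptors, and so set how cells attach, migrate and respond to injury. Some are scarce in resting arteries and are made again during wound repair, by macrophages, fibroblasts or smooth muscle cells that have left the contractile state.

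Of the 10 genes, 6 rose in AAD of both sexes, against 9.18% of all tested genes in males and 9.94% in females. In treated mice without a lesion, 2 of them were higher in males and 4 in females, against 0.381% and 1.67% of all genes. Spp1 and Cthrc1, nearly silent in controls, rose most, followed by Thbs1, Tnc, Thbs4 and Thbs2. Postn and Sparc, which were abundant in every aorta, were higher by less than 2-fold, and Ccn1 and Ccn2 did not pass the test in any comparison. Expression is given in CPM, the count of a gene scaled to the size of its library after TMM normalization. A gene was called where the Benjamini-Hochberg adjusted p of edgeR's quasi-likelihood test was under 0.05 and the absolute log2 fold change was at least 1, in a fit of all 48 libraries, and adjusted p-values below are from this test. Values after ± are approximate standard errors (SE) of a log2 fold change. Library totals ranged from 13548003 to 17281262 counts. Summed CPM of 10 smooth muscle markers had a median of 42520 in MaCon and 44650 in FeCon, and that of 10 heart muscle markers did not exceed 749.2 in any library. In FeAAD against FeCon, 5 of the 10 heart muscle markers and 1 of 6 mesothelial markers were called lower, against 2.78% of all tested genes. Their medians were -1.56 and -0.85, and in MaAAD 0.41 and 0.24. Summed CPM of 7 brown fat markers had medians of 971.9 in MaCon, 364.7 in MaAAD, 732.7 in FeCon and 514.9 in FeAAD. It ranged from 134.2 to 2466 in MaAAD, and 0 of the 7 were called in either AAD group against controls. The part of these tissues in the results below was not tested.

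**Figure D1:**
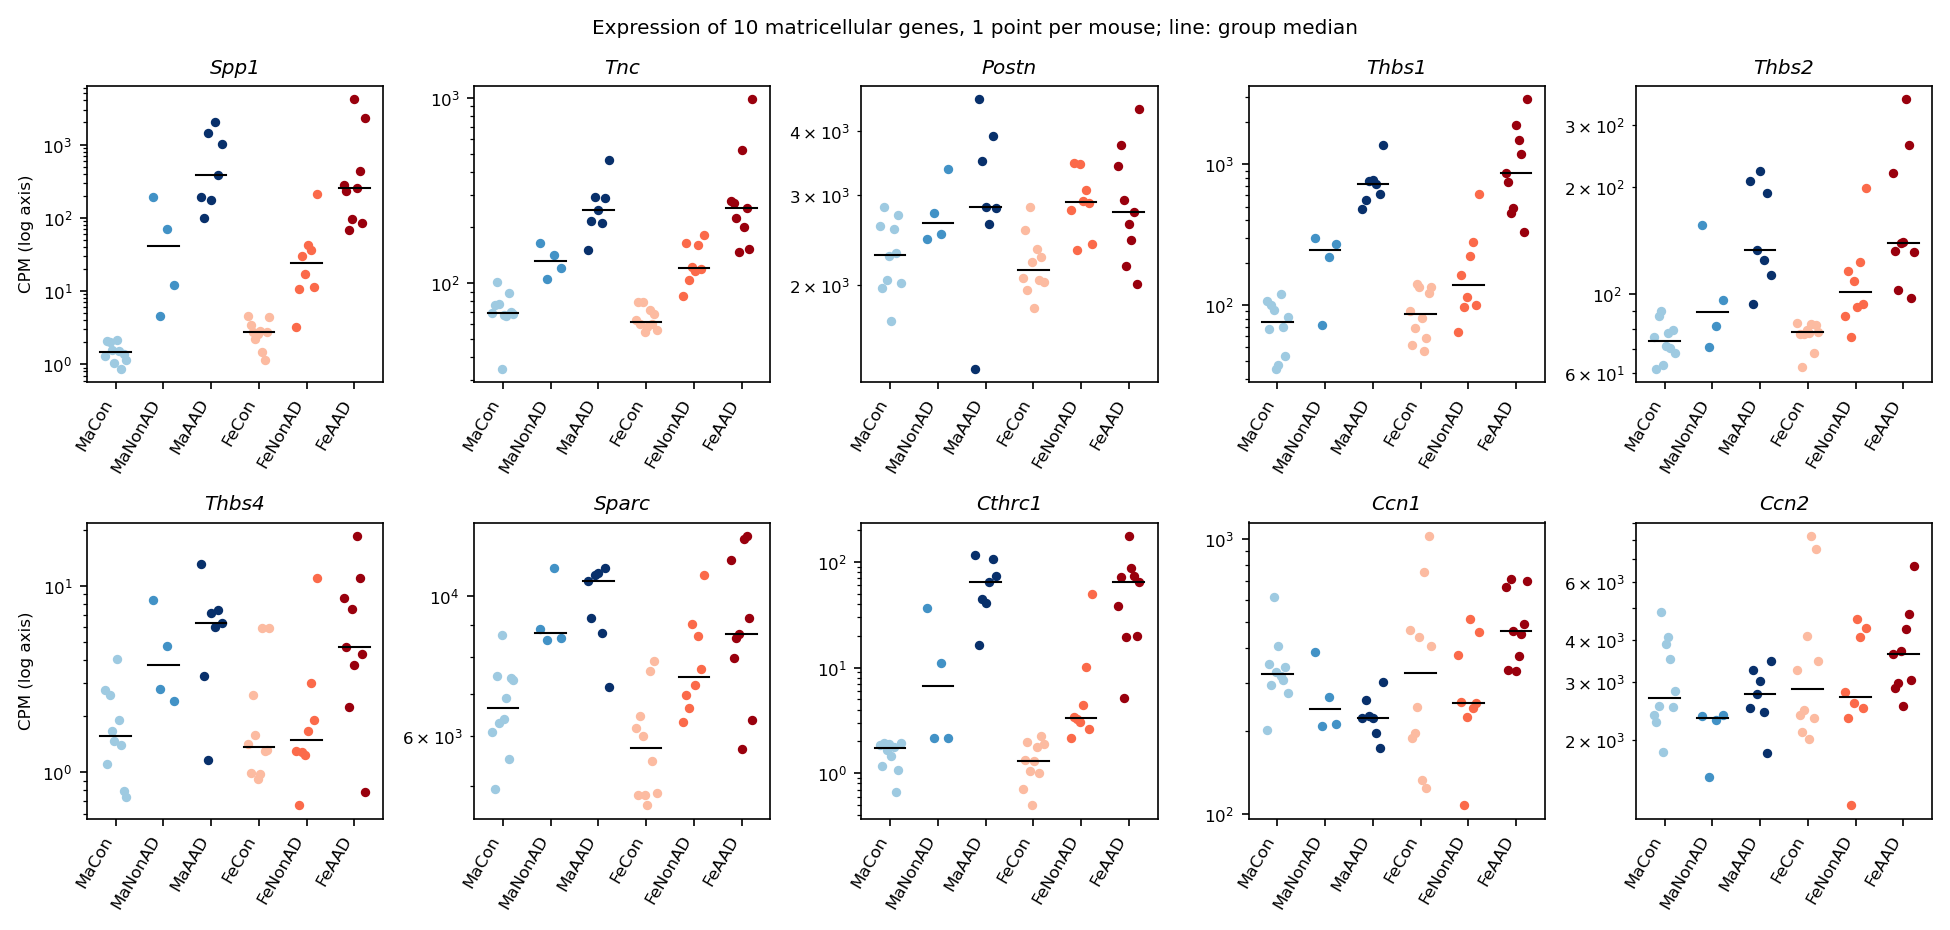
CPM of the 10 matricellular genes in the 6 groups, on log axes that differ between genes. Each point is 1 mouse and each line a group median. Spp1, Tnc, Thbs1 and Cthrc1 climb from Con through NonAD to AAD in both sexes, whereas the CCN genes show no such order.

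Per kilobase of mean coding transcript length (GENCODE M21, matched by symbol), Sparc was the most abundant gene of the set in FeCon, at 3922 CPM per kb, before Ccn2 at 2173 and Postn at 863. Spp1 had a group mean of 2.67 CPM per kb in FeCon and 826 in FeAAD, but the FeAAD mean was carried by a few mice, and the group median was 238, far below that of Postn at 1081. By group means Cthrc1 went from 1.81 to 81.3 CPM per kb between these groups and Thbs1 from 15.9 to 196. Thbs4 had the lowest level per length in FeAAD, at 2.14 CPM per kb. By the longest transcript, Sparc had 2556, Ccn2 1522 and Postn 691 CPM per kb in FeCon, and Cthrc1 had 1.18 in FeCon and 53.3 in FeAAD. Of 60 values per length, 14 moved by at least the SD of their group under this choice.

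Promoter sequences are shown for Spp1 and Tnc, genes that rose together, and for Ccn1, which did not rise. RefSeq promoter windows (GRCm38.p6) matched 7 of the 10 genes, and each sequence below holds the 250 bases upstream of an annotated start, written 5′ to 3′ on the gene's strand. The letters TGTGGT (RUNX), GGAATG (TEAD) and TGANTCA (AP-1) and the CArG box were searched on both strands, and matches are in capitals. The Spp1 window is chr5:104434861-104435110 on the plus strand, the Tnc window chr4:64047016-64047265 on the minus strand and the Ccn1 window chr3:145649986-145650235 on the minus strand. All 3 lie before the annotated transcripts, outside their exons.
Spp1: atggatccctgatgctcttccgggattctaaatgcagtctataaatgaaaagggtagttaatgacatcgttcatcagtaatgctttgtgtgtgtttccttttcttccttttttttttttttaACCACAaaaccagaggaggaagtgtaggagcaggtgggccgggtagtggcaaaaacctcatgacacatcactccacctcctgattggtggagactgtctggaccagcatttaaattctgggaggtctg
Tnc: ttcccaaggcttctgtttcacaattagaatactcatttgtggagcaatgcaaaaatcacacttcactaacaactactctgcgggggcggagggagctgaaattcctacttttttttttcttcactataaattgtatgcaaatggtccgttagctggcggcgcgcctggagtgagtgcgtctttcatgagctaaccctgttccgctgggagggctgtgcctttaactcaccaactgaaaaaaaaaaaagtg
Ccn1: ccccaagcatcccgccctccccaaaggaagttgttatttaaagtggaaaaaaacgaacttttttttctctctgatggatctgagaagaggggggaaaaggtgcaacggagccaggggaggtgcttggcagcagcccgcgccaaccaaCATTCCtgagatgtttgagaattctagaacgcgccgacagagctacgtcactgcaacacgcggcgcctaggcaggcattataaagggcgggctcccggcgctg

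The Spp1 window held a RUNX match 128 bases before the start, a motif present in 14% of 32851 such windows. The Ccn1 window held a TEAD match 103 bases before the start, and the Thbs4 window held TEAD matches at 197 and 192 bases, against 12.6% of all windows. Neither AP-1, present in 6.75% of windows, nor the CArG box, present in 1.47%, was found in the windows of the 7 genes. These matches describe letters only.

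In males without a lesion, 2 of the 10 genes were called higher than in MaCon, Spp1 and Cthrc1, against 0.381% of all tested genes. The median log2 fold change over the 10 genes was 0.68, beside -0.02 over all tested genes. The count was 1 without MaNonAD1 and 3 without MaNonAD2. The values of Spp1, Tnc and Cthrc1 lay above all 10 controls in each of the 4 mice, and 0.617% of all genes were apart in that way. In females without a lesion, 4 genes were called higher, Spp1, Tnc, Thbs1 and Cthrc1, against 1.67% of tested genes. The median over the 10 genes was 0.48, beside 0.00 over all genes, and the count was 2 without FeNonAD6 or FeNonAD8. Only Tnc was apart from the controls in all 8 mice, where 0.367% of all genes were.

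In MaAAD against MaCon, 6 of the 10 genes were called higher and 0 lower, against 9.18% of tested genes called higher and 2.18% lower, and the median log2 fold change was 1.42, beside -0.03. The 6 were Spp1, Cthrc1, Thbs1, Tnc, Thbs4 and Thbs2, and all of them except Thbs4 were higher in each of the 7 mice than in any control, as 6.14% of all genes were. In FeAAD against FeCon, these 6 genes were called higher and 0 lower, against 9.94% and 2.78%, with a median of 1.38, beside 0.00. Again the values of 5 genes, Thbs4 excepted, did not overlap, as for 3.63% of all genes.

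Between AAD and NonAD, 4 genes were called higher in females, Spp1, Tnc, Thbs1 and Cthrc1, against 6.79% of tested genes, and 0 genes lay apart, against 0.166% of all genes. In males 0 genes were called, against 0.353%. At an unadjusted p under 0.05, 5 of the 10 genes were higher in MaAAD than in MaNonAD, against 12.3% of tested genes, and DESeq2 called 4 of them, against 3.46%. The count of calls was 3 when MaNonAD1, MaAAD1 or MaAAD2 was left out. Thbs1 was the only gene of the set whose MaAAD and MaNonAD values did not overlap, against 2.97% of all genes.

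**Figure D2:**
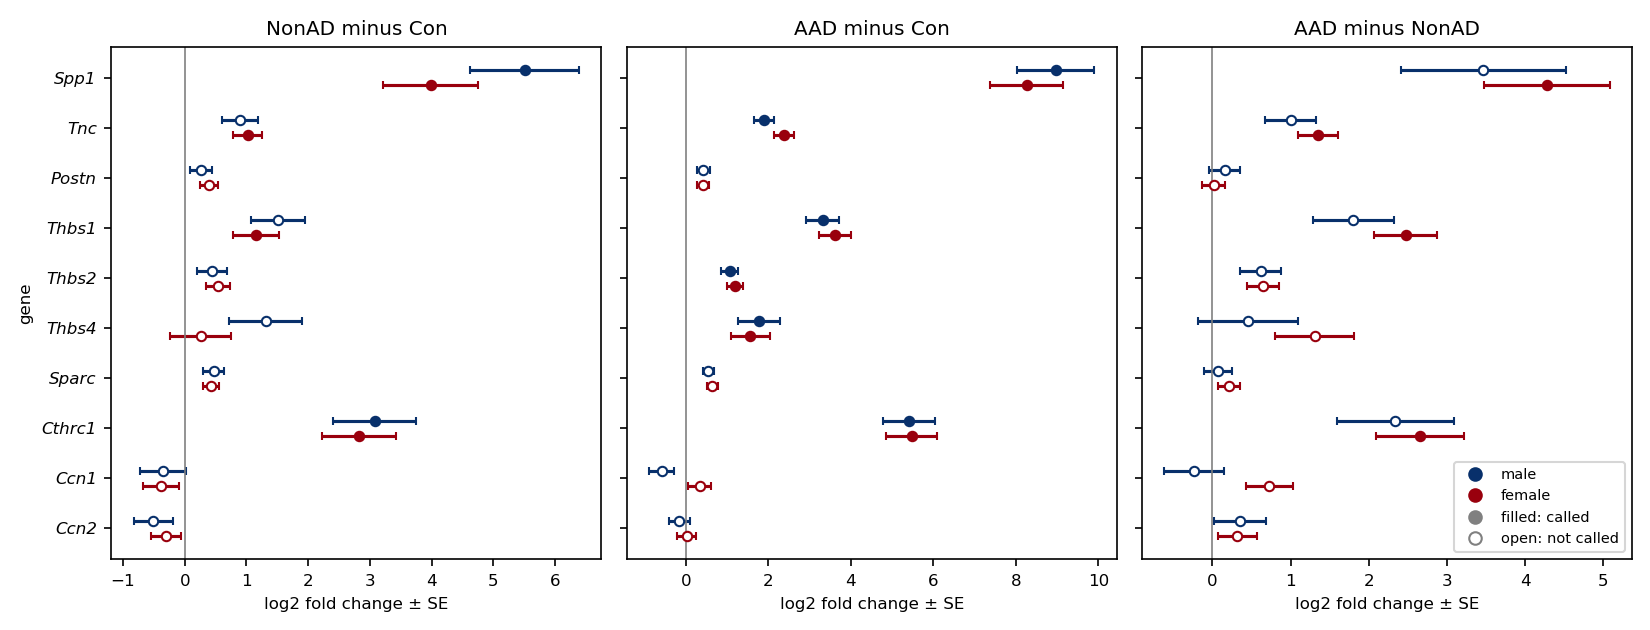
Log2 fold changes of the 10 genes with approximate SE, for NonAD against Con, AAD against Con and AAD against NonAD (left to right), in males (blue) and females (red). Filled points were called. In the middle panel 6 genes are filled in both sexes, with Spp1 at 8.97 in males and 8.27 in females.

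Spp1 (chromosome 5, 104435118 to 104441050, plus strand, GRCm38) encodes osteopontin, a phosphoprotein that binds integrins and Cd44 and is secreted by macrophages and by smooth muscle cells that have left the contractile state. In MaCon it ranged from 0.869 to 2.13 CPM with a median of 1.46, and in FeCon from 1.16 to 4.63 with a median of 2.75. The 4 MaNonAD mice had 189.6, 4.58, 69.99 and 12.2 CPM. The FeNonAD mice ranged from 3.29 to 210.3 CPM with a median of 23.9. Thus a treated aorta without a lesion could be at control level or higher than some aortas with one, and 7 of 8 FeNonAD mice were above the highest FeCon mouse. MaAAD ranged from 100.7 to 2015 CPM with a median of 379.8, and FeAAD from 68.1 to 4120 with a median of 253.1. Every AAD aorta was above every control, but 2 of the 7 MaAAD values were below the highest MaNonAD mouse.

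By the ratio of highest to lowest mouse, Spp1 had the widest spread of the set in each treated group, though not in controls. The highest FeAAD mouse had 60.5 times the lowest, and the highest FeNonAD mouse 64.0 times, whereas the ratio was 4.0 in FeCon and 2.45 in MaCon. Between FeAAD and FeNonAD the log2 fold change was 4.28 ± 0.80 (adjusted p = 0.000179), with 6 of 9 FeAAD mice above the highest FeNonAD mouse, and it was 3.39 without FeAAD5 and 5.34 without FeNonAD8. Between MaAAD and MaNonAD it was 3.46 ± 1.05 (adjusted p = 0.066), with 5 of 7 mice above the highest. The test did not pass in males, where DESeq2 gave an adjusted p of 0.0078 and the value without MaNonAD1 was 4.72 (adjusted p = 0.0329).

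Cthrc1 (chromosome 15, 39076932 to 39087121, plus strand, GRCm38), a secreted protein found in injured arteries and in activated fibroblasts, had a pattern close to that of Spp1 at a lower level. It ranged from 0.668 to 1.95 CPM in MaCon and from 0.496 to 2.27 CPM in FeCon. The MaNonAD mice had 36.8, 2.16, 11.2 and 2.14 CPM, and the FeNonAD mice ranged from 2.17 to 49.9 CPM with a median of 3.31. So all 4 MaNonAD mice were above all MaCon mice, by little in 2 of them. The increase over controls was called in both sexes, with a log2 fold change of 3.08 ± 0.67 (adjusted p = 0.0133) in males and 2.83 ± 0.60 (adjusted p = 0.00131) in females. In males it rested on the first of these mice, since without it the value was 1.73 (adjusted p = 0.707). In females it was 1.58 (adjusted p = 0.0432) without FeNonAD8.

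With a lesion, Cthrc1 ranged from 16.4 to 117.0 CPM in MaAAD (median 64.6) and from 5.14 to 176.4 CPM in FeAAD (median 65.3). The log2 fold change to controls was 5.42 ± 0.62 (adjusted p = 9.43e-09) in males and 5.48 ± 0.62 (adjusted p = 2.14e-09) in females. In females the step from NonAD was 2.66 ± 0.57 (adjusted p = 0.000691), and 3.91 without FeNonAD8. In males it was 2.34 ± 0.75 (adjusted p = 0.0745) and was not called, although it was 3.68 (adjusted p = 0.0237) without MaNonAD1, and DESeq2 gave an adjusted p of 0.0271.

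Tnc (chromosome 4, 63959785 to 64047015, minus strand, GRCm38), a large glycoprotein that loosens the attachment of cells, was expressed in every control at 34.6 to 102.2 CPM. The MaNonAD mice had 165.6, 106.1, 141.3 and 121.4 CPM and the FeNonAD mice 85.1 to 181.8 CPM with a median of 121.4. All treated aortas without a lesion were thus above all controls of their sex. The log2 fold change in females, 1.02 ± 0.24, was called (adjusted p = 0.00327), and that in males, 0.89 ± 0.29, was not (adjusted p = 0.155). The female value lay on the 2-fold limit, and was 0.94 to 0.998 without any of FeCon5, FeCon10, FeNonAD2, FeNonAD6 or FeNonAD8. MaAAD ranged from 151.3 to 460.7 CPM and FeAAD from 147.7 to 979.8 CPM, with log2 fold changes to controls of 1.89 ± 0.25 (adjusted p = 9.97e-08) and 2.37 ± 0.24 (adjusted p = 4.06e-10). In FeAAD 1 mouse, FeAAD9, was far above the others, the next being at 524.6 CPM, and without it the step from FeNonAD fell from 1.35 (adjusted p = 0.00017) to 0.96 (adjusted p = 0.000697), just under 2-fold.

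Thbs1 (chromosome 2, 118111876 to 118127133, plus strand, GRCm38) encodes an inhibitor of angiogenesis and activator of latent TGF-beta that platelets also store. It ranged from 35.2 to 119.9 CPM in MaCon and from 47.4 to 141.1 CPM in FeCon. In MaNonAD the values were 299.6, 71.7, 219.1 and 270.5 CPM, 3 of them above all controls. FeNonAD ranged from 64.3 to 613.0 CPM with a median of 138.9, and 4 of 8 mice were above all controls. The call in FeNonAD was lost without FeNonAD6 (1.09, adjusted p = 0.0517) or the highest mouse, FeNonAD8, for the log2 fold change was 1.16 ± 0.37 (adjusted p = 0.0271) with all mice and 0.68 (adjusted p = 0.194) without the latter. In MaNonAD the value of 1.51 ± 0.43 was not called (adjusted p = 0.0955), although it was when MaNonAD2, the mouse at control level, was left out (1.83, adjusted p = 0.0361) or when the fit held the compared groups only (1.52, adjusted p = 0.0336).

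In aortas with a lesion, Thbs1 ranged from 482.1 to 1357 CPM in MaAAD (median 724.9) and from 327.7 to 2879 CPM in FeAAD (median 869.0). Every AAD mouse was above every control of its sex and every MaAAD mouse above every MaNonAD mouse. The log2 fold changes to controls were 3.32 ± 0.39 (adjusted p = 1.56e-08) in males and 3.63 ± 0.39 (adjusted p = 7.87e-10) in females. From NonAD to AAD they were 1.80 ± 0.52 (adjusted p = 0.0565) in males and 2.47 ± 0.40 (adjusted p = 9.96e-05) in females, the latter called. DESeq2 gave an adjusted p of 0.0192 in males.

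Thbs2 (chromosome 17, 14665500 to 14694235, minus strand, GRCm38), which also restrains angiogenesis and helps clear matrix proteases, changed less. Controls were narrow, at 61.7 to 89.7 CPM in MaCon and 62.6 to 83.0 CPM in FeCon. The MaNonAD mice had 156.3, 71.1, 81.6 and 96.2 CPM, whereas 7 of 8 FeNonAD mice were above all FeCon mice, at 76.0 to 198.6 CPM over the group. MaAAD ranged from 94.0 to 223.0 CPM and FeAAD from 97.7 to 353.7 CPM, above all controls. The log2 fold changes of 1.06 ± 0.20 (adjusted p = 3.48e-05) in males and 1.19 ± 0.19 (adjusted p = 1.63e-06) in females were close to the 2-fold limit, and fell under it without MaAAD1 (0.995), MaAAD4 (0.955) or FeAAD6 (0.995).

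Thbs4 (chromosome 13, 92751590 to 92794818, minus strand, GRCm38), a pentameric thrombospondin found in tendon and in stressed heart and muscle, was at the lower end of detection. It ranged from 0.740 to 4.05 CPM in MaCon and from 0.922 to 5.97 CPM in FeCon. MaAAD ranged from 1.16 to 13.1 CPM with a median of 6.30, and FeAAD from 0.785 to 18.5 with a median of 4.70. The AAD groups therefore overlapped with controls, with 5 of 7 MaAAD and 4 of 9 FeAAD mice above the highest. The differences were called, at 1.77 ± 0.50 (adjusted p = 0.00493) in males and 1.57 ± 0.48 (adjusted p = 0.00651) in females. The MaNonAD mice had 8.44, 2.80, 4.73 and 2.41 CPM, and in FeNonAD, FeNonAD8 had 11.0 CPM and the others at most 3.0. Against FeNonAD the FeAAD value of 1.31 ± 0.50 was not called (adjusted p = 0.0634), but it passed without FeNonAD8 (2.11, adjusted p = 0.0016), FeAAD3 (1.42, adjusted p = 0.0384) or FeAAD9 (1.46, adjusted p = 0.0378), and by DESeq2 (adjusted p = 0.0414).

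Sparc (chromosome 11, 55394500 to 55423183, minus strand, GRCm38), a collagen-binding protein that assists fibril assembly, was the most abundant gene of the set. It ranged from 4955 to 8659 CPM in MaCon and from 4660 to 7876 CPM in FeCon. Values in MaNonAD were 8868, 8514, 11080 and 8581 CPM, and FeNonAD ranged from 6326 to 10790 CPM. MaAAD ranged from 7185 to 11070 CPM and FeAAD from 5722 to 12450 CPM, so each treated group overlapped with its controls. By adjusted p alone Sparc was higher in MaAAD (0.54 ± 0.14, adjusted p = 0.0018), FeAAD (0.65 ± 0.13, adjusted p = 8.35e-05) and FeNonAD (0.43 ± 0.13, adjusted p = 0.0259). The value in FeNonAD no longer passed without FeCon5, FeNonAD4, FeNonAD6 or FeNonAD8 (0.35 to 0.41, adjusted p up to 0.0822). At that threshold 18.9%, 23.8% and 6.87% of all tested genes were higher in the same comparisons.

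Postn (chromosome 3, 54361109 to 54391037, plus strand, GRCm38), a fasciclin-domain protein that promotes collagen cross-linking, ranged from 1704 to 2842 CPM in MaCon and from 1802 to 2849 CPM in FeCon. MaAAD ranged from 1374 to 4610 CPM with a median of 2846, and FeAAD from 2008 to 4408 with a median of 2776. The lowest Postn value of all aortas and the highest thus both came from MaAAD, from MaAAD1 and MaAAD2. The increases of 0.42 ± 0.15 (adjusted p = 0.0261) in males and 0.41 ± 0.14 (adjusted p = 0.0162) in females passed the adjusted p alone, but not without MaAAD2 (0.30, adjusted p = 0.124), MaAAD6 (0.36, adjusted p = 0.0765) or FeAAD9 (0.32, adjusted p = 0.0609). MaAAD1 also had the highest summed CPM of 7 white fat markers of its group, 6392 against a group median of 1310, and without it the male value was 0.57 (adjusted p = 0.000832). Whether fat in the sample had a part in this was not tested.

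Ccn2 (chromosome 10, 24595442 to 24598683, plus strand, GRCm38), a target of TGF-beta and of the mechanosensitive YAP/TEAD complex, was abundant and not called in any comparison. It ranged from 1843 to 4855 CPM in MaCon, from 1827 to 3473 in MaAAD, from 2015 to 8228 in FeCon and from 2529 to 6664 in FeAAD. The log2 fold change from Con to AAD was -0.16 ± 0.26 (adjusted p = 0.664) in males and 0.02 ± 0.24 (adjusted p = 0.96) in females. The MaNonAD mice had 2372, 1553, 2307 and 2390 CPM, all within or below the range of MaCon.

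Ccn1 (chromosome 3, 145646976 to 145649981, minus strand, GRCm38), an immediate early gene that shares these regulators, had values of 173.1 to 300.2 CPM in MaAAD and of 331.5 to 714.1 CPM in FeAAD, so that all 7 male aortas with a lesion were below all 9 female ones. Among all tested genes 0.0277% were apart in this direction, and no other gene of the set was. The log2 fold change of MaAAD against FeAAD was -1.14 ± 0.32, with an unadjusted p of 0.000835 and an adjusted p of 0.634, and was not called. When the fit held the compared groups only, the value was -1.12 with an adjusted p of 0.0286. In controls the sexes overlapped, at 201.9 to 613.5 CPM in MaCon and 123.9 to 1023 CPM in FeCon, and the difference between the sexes in the AAD response was -0.93 ± 0.42 (adjusted p = 0.264).

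FeCon7 and FeCon9 stood out among controls for both CCN genes, with 757.8 and 1023 CPM of Ccn1 and 8228 and 7525 CPM of Ccn2, whereas the other FeCon mice had at most 465.8 and 4107 CPM. The CCN genes moved together in controls. Over the 20 control aortas the correlation of their deviations from group means was r = 0.85, and over all 48 it was 0.794 (Spearman's rho 0.691).

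Between the sexes, 0 of the 10 genes were called in Con, NonAD or AAD. Unadjusted p-values were under 0.05 for Ccn1 in AAD alone, where 29.1% of tested genes were in Con, 6.47% in NonAD and 2.22% in AAD. DESeq2 called 0 genes of the set in AAD, against 0.0537%. Of all tested genes, 1.51% were called in either direction in Con, 0.0485% in NonAD and 0.0693% in AAD. The tests of a difference in response called 0 of the 10 genes as well, against 0.298% of all genes for NonAD against Con, 0.52% for AAD against Con and 0% for AAD against NonAD. For Spp1 the NonAD response was larger in males by 1.52 ± 1.16 on the log2 scale (adjusted p = 0.68), and the value was 0.27 without MaNonAD1 and 2.58 without FeNonAD8. For Tnc the male AAD response minus the female one was -0.48 ± 0.34 (adjusted p = 0.528), and -0.09 without FeAAD9.

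**Figure D3:**
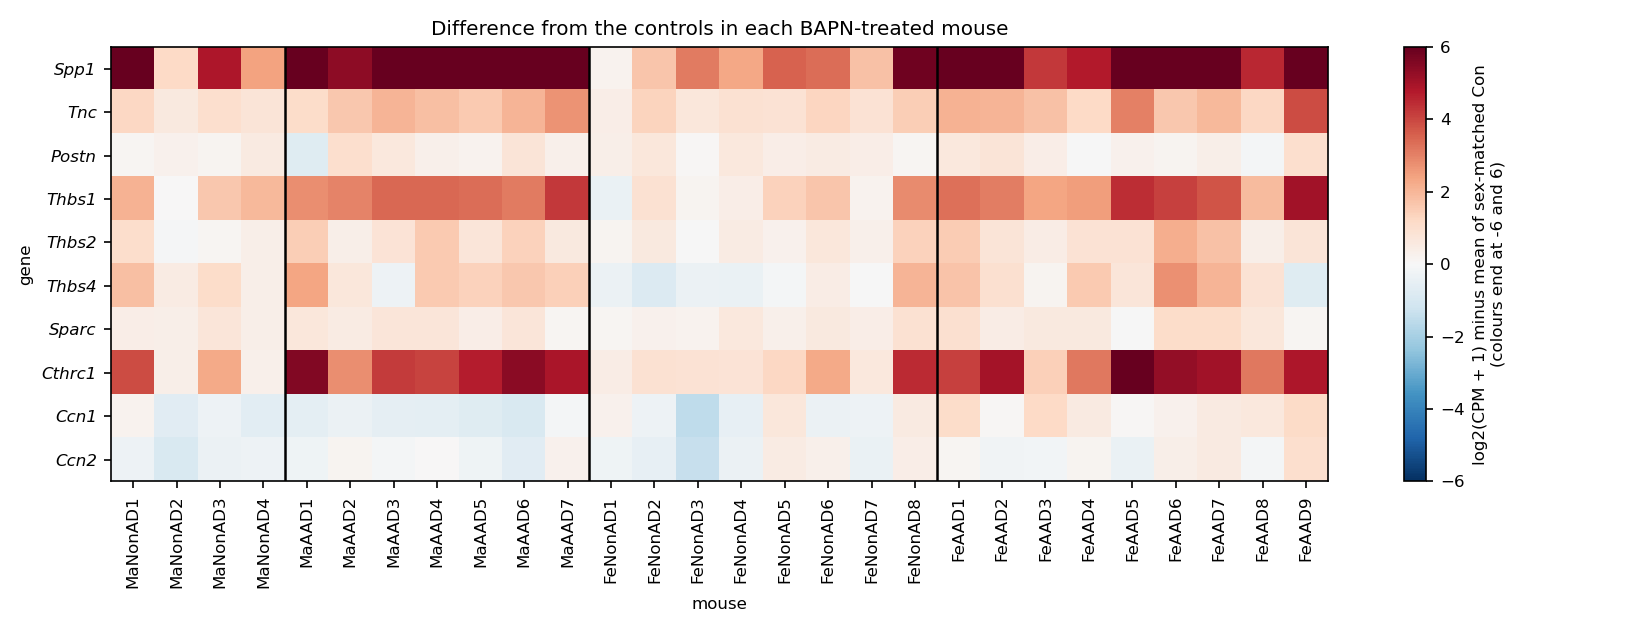
Difference in log2(CPM + 1) from the mean of sex-matched controls for the 10 genes (vertical) in the 28 BAPN-treated mice (horizontal). Black lines separate MaNonAD, MaAAD, FeNonAD and FeAAD, and the colours end at -6 and 6. FeNonAD8 and MaNonAD1 are darker than the other mice of their groups for Spp1, Thbs2, Thbs4 and Cthrc1.

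Aortas without a lesion differed among themselves. FeNonAD8 had the highest value of its group for 7 of the 10 genes, all but Postn, Ccn1 and Ccn2, and MaNonAD1 for 7 genes of its group, all but Postn, Sparc and Ccn2. MaNonAD2 had the lowest value for 7 genes. The summed CPM of 16 macrophage markers was also highest in these mice, at 1363 in FeNonAD8 against a group median of 725.4, and at 1240 in MaNonAD1 against 960.0. Their summed CPM of 11 chondrocyte markers was highest too, at 451.2 and 413.1. B cell markers also moved, for of 8 tested 6 were called higher in MaNonAD and 1 in FeNonAD, and 5 in MaAAD and 8 in FeAAD, with medians of 2.21, 1.09, 1.43 and 2.5. The shares of all tested genes called higher were 0.381%, 1.67%, 9.18% and 9.94%. The summed CPM of B cell markers was low, at most 25.6 in MaNonAD, in MaNonAD4, and 35.5 in FeAAD, in FeAAD9, against at most 7.07 in controls. What part these cells had in the values of the set was not tested.

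Among the 16 aortas with a lesion, several pairs of genes varied together, after the mean of each group was taken off log2(CPM + 1). Spp1 and Thbs1 were correlated at r = 0.798 (rho 0.809), Spp1 and Tnc at r = 0.755 (rho 0.715), and Tnc and Thbs1 at r = 0.84 (rho 0.738). Without FeAAD5 and FeAAD9, the mice farthest from the median of the first-named gene, these were 0.672, 0.574 and 0.695. Thbs2 and Thbs4 were correlated at r = 0.723 (rho 0.721), Thbs2 and Sparc at r = 0.674 (rho 0.703), and Thbs4 and Sparc at r = 0.57 (rho 0.653). Without the 2 mice farthest for the first-named gene they were 0.57, 0.492 and 0.648. These mice were FeAAD6 and FeAAD7 for Thbs2, and FeAAD9 and MaAAD3 for Thbs4. Tnc and Postn had r = 0.569 (rho 0.606) and Ccn1 and Ccn2 r = 0.536 (rho 0.441). Cthrc1 went with Spp1 at r = 0.658 (rho 0.588) and with Thbs1 at 0.631 (rho 0.532), and less closely with Thbs2 at 0.519 and Tnc at 0.394. Tnc and Sparc had r = -0.607 (rho -0.315), but -0.265 without FeAAD5 and FeAAD9, so the inverse relation rested on these mice. Cthrc1 and Ccn1 had r = -0.58 (rho -0.635) and Postn and Thbs4 r = -0.543 (rho -0.509). Without the mice farthest for the first-named gene, FeAAD3 and MaAAD2 for Cthrc1 and MaAAD1 and MaAAD2 for Postn, these were -0.419 and -0.446. These values describe 45 pairs over shared libraries and carry no test.

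**Figure D4:**
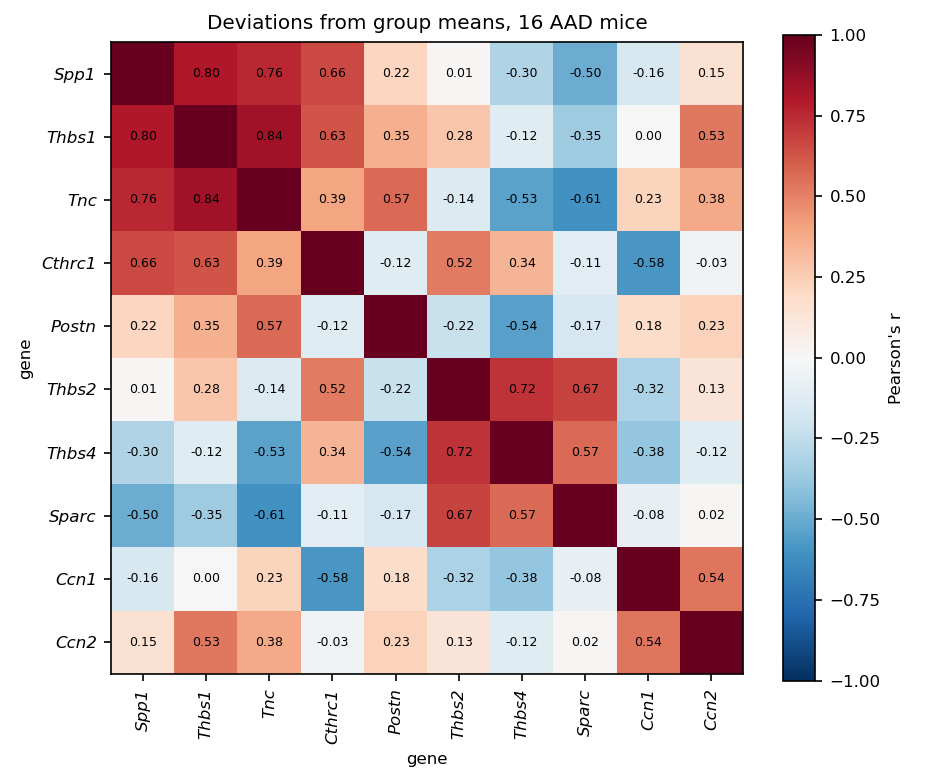
Pearson's r between the 10 genes over the deviations of 16 AAD mice from their group means of log2(CPM + 1). Red is positive and blue negative. The darkest red is between Tnc and Thbs1 at 0.84, and among Thbs2, Thbs4 and Sparc the highest r is 0.723. Tnc and Sparc are blue at -0.607.

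Macrophage markers rose in AAD. Of 16 markers, 15 were called higher in MaAAD and 14 in FeAAD than in controls, against 9.18% and 9.94% of all tested genes. The median log2 fold changes of the markers were 2.07 and 1.68. In either NonAD group edgeR called 0 of the 16 markers, and the medians were 0.73 in males and 0.38 in females. At an unadjusted p under 0.05, 10 were higher in MaNonAD and 2 in FeNonAD, and DESeq2 called 1 and 0. In either direction, 1734 of the 14431 tested genes were under that limit in MaNonAD and 4172 in FeNonAD. Trem2, a lipid receptor of macrophages, rose by 3.81 ± 0.46 (adjusted p = 2.27e-08) in MaAAD and 3.44 ± 0.45 (adjusted p = 3.32e-08) in FeAAD. The summed CPM of the 16 markers ranged from 329.3 to 785.3 in MaCon, 1233 to 5313 in MaAAD, 398.9 to 891.3 in FeCon and 923.0 to 7707 in FeAAD. Over the 16 AAD mice the deviations of Spp1 and Cthrc1 went with those of this sum at r = 0.72 (rho 0.694) and r = 0.708 (rho 0.659), those of Thbs1 and Tnc at 0.491 and 0.386, and that of Thbs2 at -0.00. For Thbs4 and Postn r was 0.097 and -0.145. For Ccn1, Sparc and Ccn2 it was -0.467 (rho -0.591), -0.461 (rho -0.176) and -0.243 (rho -0.118). FeAAD5 had both the highest macrophage sum and the highest Spp1 and Cthrc1, but FeAAD9, the second highest for Spp1 at 2331 CPM, had a sum of 1395, below the group median of 1701. Macrophages as a source of Spp1 or Cthrc1 were not tested.

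Chondrocyte markers varied with Thbs2, Sparc and Thbs4. Of 10 tested markers, 5 were called higher in MaAAD, against 9.18% of all tested genes. In FeAAD 5 were called higher and 1 lower, against 9.94% and 2.78%. The medians were 1.22 and 1.18. Comp, on this list, is itself a thrombospondin. Col11a1 rose by 5.46 ± 0.89 (adjusted p = 3.72e-06) in MaAAD and 5.34 ± 0.82 (adjusted p = 1.03e-06) in FeAAD. Their summed CPM ranged from 122.9 to 200.3 in MaCon, 243.8 to 624.3 in MaAAD, 117.8 to 192.0 in FeCon and 186.9 to 1110 in FeAAD. Over the 16 AAD mice the deviations of Thbs2, Sparc and Thbs4 went with those of this sum at r = 0.843 (rho 0.735), 0.708 (rho 0.685) and 0.695 (rho 0.726), whereas the r of the 6 genes Spp1, Tnc, Postn, Thbs1, Cthrc1 and Ccn1 lay between -0.335 and 0.216, and that of Ccn2 was 0.442. FeAAD6 had the highest sum, Thbs2 and Thbs4 of its group. The part of cartilage-like cells was not tested.

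**Figure D5:**
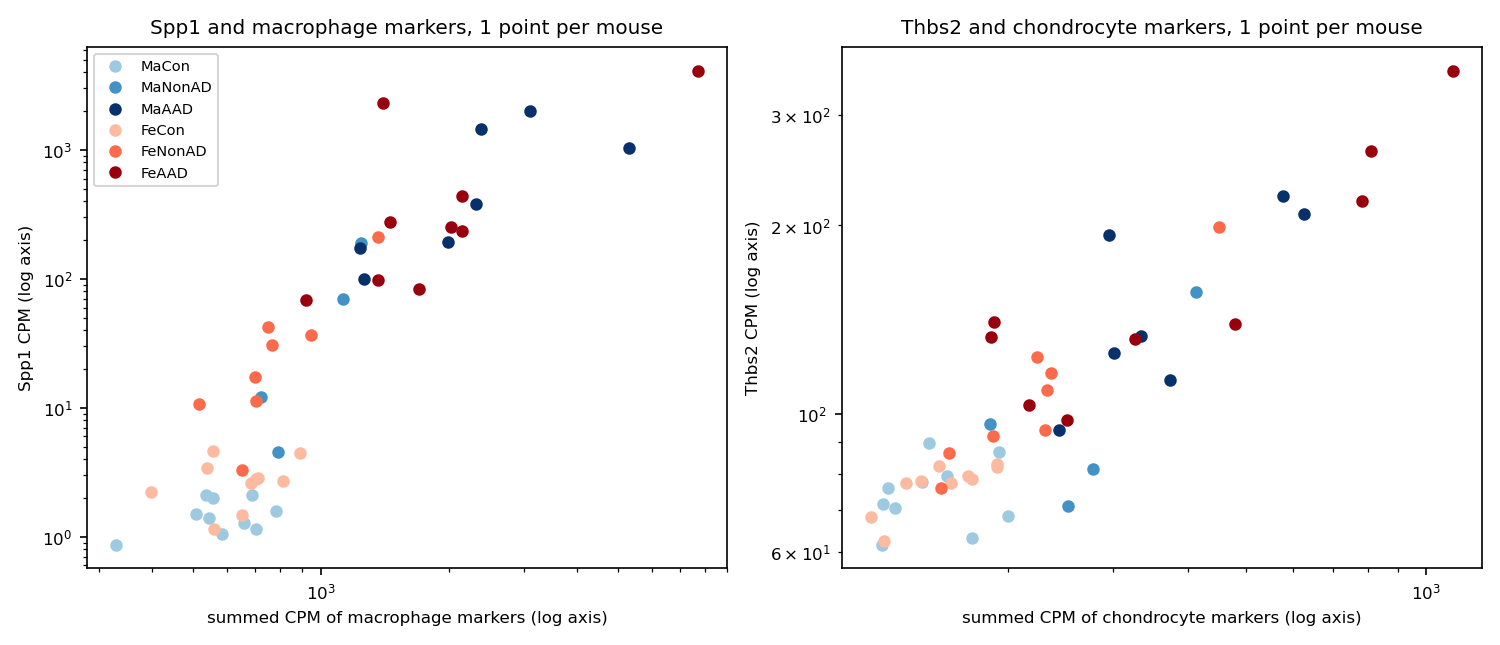
CPM of Spp1 against the summed CPM of 16 macrophage markers (left) and of Thbs2 against the summed CPM of 11 chondrocyte markers (right), 1 point per mouse, on log axes. In the right panel FeAAD6 lies at the upper end with 1110 and 353.7 CPM. In the left panel FeAAD9 lies above mice of a similar macrophage sum.

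Platelet markers were high in 3 mice that were also high in Thbs1. Their summed CPM (10 markers) was 20.6 to 47.1 in controls, 403.4 in MaAAD7, 722.4 in FeAAD5 and 192.2 in FeAAD9, and in the other AAD mice at most 97.8. MaAAD7 had the highest Thbs1 of MaAAD, and FeAAD9 and FeAAD5 had the highest of FeAAD, at 2879 and 1892 CPM. Of 8 tested platelet markers 3 were called higher in MaAAD and 7 in FeAAD, against 9.18% and 9.94% of all tested genes. The platelet chemokine Ppbp was at 4.08 ± 0.80 (adjusted p = 7.37e-05) and 6.41 ± 0.91 (adjusted p = 2.26e-07). Neutrophil markers were highest in MaAAD7 and FeAAD5 too, with summed CPM of 213.6 and 851.3 over 10 markers. Of these, Ly6g, Mpo, Elane and Camp did not pass the filter on low counts. Of the 6 tested, 3 were called higher and 1 lower in MaAAD, against 9.18% and 2.18% of all tested genes. In FeAAD 4 were called higher and 0 lower, against 9.94% and 2.78%. S100a8 and S100a9 reached 374.5 and 313.6 CPM in FeAAD, with medians of 1.3 and 0.94. In other mice the platelet sum and Thbs1 did not go together. MaAAD4 had the lowest platelet sum of its group, 36.8, and the second highest Thbs1, 777.6 CPM, FeAAD6 had a sum of 45.0 with 1483 CPM of Thbs1, and FeAAD3 a sum of 92.6 with 452.5 CPM. The part of blood in these values was not tested.

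Smooth muscle markers went down with a lesion. Of 10 markers, 7 were called lower in MaAAD and 5 in FeAAD, against 2.18% and 2.78% of all tested genes. The median of the summed CPM of these markers was 21260 in MaAAD and 22140 in FeAAD. Fibroblast markers were called higher for 2 of 14 genes in MaAAD, against 9.18% of all tested genes. In FeAAD 2 were called higher and 2 lower, against 9.94% and 2.78%.

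Relatives of the set were mixed. Of 19 genes in the table, 14 were tested, and 3 were called higher and 1 lower in MaAAD, and 3 higher and 3 lower in FeAAD, with median log2 fold changes of -0.21 and -0.15. The shares of all tested genes called higher and lower were 9.18% and 2.18% in MaAAD, and 9.94% and 2.78% in FeAAD. Ccn4, a CCN protein induced by Wnt signalling, rose from 4.06 to 8.55 CPM in MaCon to 20.0 to 56.5 in MaAAD, without overlap, by 2.81 ± 0.30 (adjusted p = 2.27e-09), and in FeAAD by 2.64 ± 0.29 (adjusted p = 1.09e-09). It was thus a CCN gene that rose while Ccn1 and Ccn2 did not. The tenascin gene Tnn rose by 5.33 ± 0.71 (adjusted p = 1.25e-07) in MaAAD and 3.04 ± 0.67 (adjusted p = 0.000252) in FeAAD from at most 0.366 CPM in any control, and reached 15.6 CPM in 1 MaAAD mouse. Comp rose by 1.26 ± 0.41 (adjusted p = 0.0132) and 1.52 ± 0.39 (adjusted p = 0.00132).

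Receptors of the set went in both directions. Of 17 tested genes 3 were called higher and 1 lower in MaAAD, against 9.18% and 2.18% of all genes, and 2 higher and 1 lower in FeAAD, against 9.94% and 2.78%, with medians of 0.15 and -0.10. Cd44, a receptor for osteopontin and hyaluronan, rose by 1.49 ± 0.22 (adjusted p = 7.51e-07) in MaAAD and 1.54 ± 0.21 (adjusted p = 1.09e-07) in FeAAD. The syndecan Sdc1 rose by 1.16 ± 0.18 (adjusted p = 1.7e-06) and 1.22 ± 0.17 (adjusted p = 1.58e-07). Ptprz1, a phosphatase that binds tenascins, fell by 1.47 ± 0.33 (adjusted p = 0.000363) and by 1.19 ± 0.30 (adjusted p = 0.00106) on the log2 scale.

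Genes known to respond to TGF-beta rose in part. Of 17, 7 were called higher in MaAAD, against 9.18% of all tested genes, and 6 in FeAAD, against 9.94%, 0 were called lower, and the medians were 0.65 and 0.40. Fibronectin (Fn1) rose by 1.47 ± 0.17 (adjusted p = 9.16e-09) and 1.25 ± 0.16 (adjusted p = 2.72e-08) and the collagen-binding integrin Itga11 by 1.69 ± 0.44 (adjusted p = 0.00203) and 2.07 ± 0.42 (adjusted p = 8.81e-05). Of 20 targets of YAP other than Ccn1 and Ccn2, 2 were called higher in MaAAD and 1 in FeAAD, where the shares of all tested genes were 9.18% and 9.94%, with medians of -0.01 and 0.01, and Nuak2, a stress kinase, was in both counts, at 1.61 ± 0.26 (adjusted p = 3.34e-06) and 1.35 ± 0.25 (adjusted p = 1.78e-05). Igfbp3, which binds insulin-like growth factors, was called in MaAAD at 1.52 ± 0.32 (adjusted p = 0.000166) and had 0.38 (adjusted p = 0.311) in FeAAD, while Nt5e, a nucleotidase, had 0.90 (adjusted p = 0.0326) and 0.72 (adjusted p = 0.0574).

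Immediate early genes, to which Ccn1 belongs, went in both directions. Of 20, 5 were called higher and 1 lower in MaAAD, against 9.18% and 2.18% of all tested genes. In FeAAD 5 were called higher and 2 lower, against 9.94% and 2.78%. Egr2 rose by 1.71 ± 0.25 (adjusted p = 7.26e-07) and 2.23 ± 0.24 (adjusted p = 9.68e-10), and Fosl1 by 2.49 ± 0.46 (adjusted p = 2.96e-05) and 1.82 ± 0.43 (adjusted p = 0.000535). Egr3 rose by 1.26 ± 0.31 (adjusted p = 0.00111) and 1.36 ± 0.29 (adjusted p = 0.000162). Between the sexes, 4 were called lower in MaCon than in FeCon, against 1.51% of all tested genes in either direction, with a median of -0.40. They were Junb, Nr4a1, Nr4a2 and Nr4a3. In MaAAD against FeAAD, 2 were called lower, the direction in which Ccn1 lay, against 0.0693% of all tested genes in either direction. They were Fos at -2.15 ± 0.48 (adjusted p = 0.0498) and Fosb at -1.99 ± 0.43 (adjusted p = 0.0368), and all 6 are named after their values were seen. Fos and Fosb were not called between the control groups, at -0.12 and -0.41. Fos had -0.31 (adjusted p = 0.62) in MaAAD against MaCon and rose by 1.72 (adjusted p = 0.000687) in FeAAD against FeCon, and Fosb had -0.47 (adjusted p = 0.391) and rose by 1.12 (adjusted p = 0.0121). The tests of a difference between the sexes in this response gave an adjusted p of 0.0751 for Fos and 0.129 for Fosb. In MaAAD against FeAAD over all 20 the median was -0.53, beside -0.02 over all genes.

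The genes most like each member were ranked by r of deviations from group means over 48 libraries, among 13700 genes. For Spp1 they were the growth factor Hgf (r = 0.877, rho 0.778) and the chemokine Cxcl12 (r = 0.858, rho 0.797), and for Cthrc1 the prolyl hydroxylase subunit P4ha3 (r = 0.876, rho 0.80) and Ms4a7, a macrophage gene (r = 0.838, rho 0.781). For Thbs1 they were Glis3 (r = 0.792) and Map4k4 (r = 0.767), and for Tnc Jpt2 (r = 0.807) and Tfdp1 (r = 0.788), whose rho of 0.635 and 0.535 were lower. Postn varied with Zfp367 (r = 0.879) and the integrin subunit Itgb1 (r = 0.867). Thbs2 was most like the cartilage collagen gene Col11a1 (r = 0.908, rho 0.807) and Lgr5 (r = 0.843), and Thbs4 like Col8a2 (r = 0.765) and Prss35 (r = 0.757). Sparc was most like the protease gene Htra1 (r = 0.857, rho 0.871) and P3h3, a collagen prolyl hydroxylase (r = 0.822). Ccn1 was most like the immediate early genes Btg2 (r = 0.744) and Jun (r = 0.739), and Ccn2 like Nedd9 (r = 0.828, rho 0.841) and Gem (r = 0.819).

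The order of the 6 groups differed between genes, mostly within the spread. By mean log2 CPM the AAD groups were the top pair for Spp1, Tnc, Thbs1, Thbs2, Thbs4 and Cthrc1, and the Con groups the bottom pair. Of the neighbours in these orders, only MaAAD and MaNonAD for Thbs1 and FeNonAD and MaCon for Cthrc1 did not overlap. For Ccn1 the order ran from FeAAD at the top to MaAAD at the bottom, with the 4 other groups between.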

How the data were processed

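The authors deposited a table of expected counts per gene, which RSEM 1.3.1 estimated from reads aligned with Bowtie2 to GRCm39, per the submitters' processing notes. Of its values, 4.99% were not whole numbers, none of them in the 10 genes, and all were rounded. Groups and replicate numbers came from the labels. Low counts were filtered by filterByExpr in edgeR 4.0.16 (R 4.3.3) and TMM factors ranged from 0.874 to 1.08. The test was the quasi-likelihood test of edgeR, robust, with 6 group means and Benjamini-Hochberg adjustment over 14431 genes. It was also run on simulated data, and no result above rests on that run. DESeq2 1.42.0 was an alternative. SE was taken as the log2 fold change divided by the square root of F. Python 3.11.15 with numpy 2.4.6, scipy 1.17.1, pandas 2.3.3 and matplotlib 3.10.9 served for CPM, correlations and figures. Gene positions and lengths came from GENCODE M21 (GRCm38), another build than that of the counts, matched by symbol.

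The members and gene lists were chosen with earlier results of these data known. Named were all members, for each the 2 non-members of highest r, and up to 3 genes per list with the largest mean log2 fold change of AAD against Con over both sexes, all with at least 10 counts per library on average, and any other gene as stated beside it. A gene that this rule selects is not reported here. Same-numbered mice did not deviate together in all pairs (mean r from -0.0661 to 0.16 per comparison), and numbers were not used as pairs. The alternatives were other normalization, filters, tools and samples.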

Additional observations from a re-analysis of the deposited data

Results flagged for a closer look

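Single aortas stood apart from the others of their group in 12 of the 60 sets of values examined, which are the 10 genes in 6 groups. In each, the gap to the nearest mouse was large beside the whole range of the group by Dixon's criterion. Its limits mark about 1 in 20 groups where values are normally distributed, and the CPM used here were not transformed. The rate by chance for such values was not determined, and several of the flags came from the same mouse.

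Of the 12, 5 came from FeNonAD8, a treated female without a lesion. This mouse had 210.3 CPM of Spp1, the next FeNonAD mouse having 42.03. It had 613.0 CPM of Thbs1 (next 279.6), 198.6 of Thbs2 (next 123.2), 11.02 of Thbs4 (next 3.0) and 49.94 of Cthrc1 (next 10.1). All 5 genes were among the 6 called higher in AAD, and Tnc was the other.

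With a lesion, FeAAD9 had 979.8 CPM of Tnc (next 524.6), FeAAD5 had 176.4 CPM of Cthrc1 (next 88.31) and MaAAD7 had 1357 CPM of Thbs1 (next 777.6). In MaNonAD, MaNonAD3 was high for Sparc at 11080 CPM (next 8868) and MaNonAD2 low for Ccn2 at 1553 CPM, the next lowest being 2307. Among controls, MaCon5 was low for Tnc at 34.59 CPM (next 66.54) and MaCon4 high for Ccn1 at 613.5 CPM (next 407.7).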

How the results depend on the processing

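The count of genes called higher was 2 in MaNonAD against MaCon and 1 to 3 with 1 mouse left out, the 1 without MaNonAD1. In FeNonAD against FeCon it was 4 and 2 to 4, the 2 without FeNonAD6 or FeNonAD8. In MaAAD against MaNonAD it was 0 and 0 to 3, the 3 without MaNonAD1, MaAAD1 or MaAAD2, and DESeq2 gave 4. The 6 calls of AAD against controls were 5 to 6 in each sex, and the 4 of FeAAD against FeNonAD were 4 to 5. A fit of the compared groups only called 1 gene, Ccn1, lower in MaAAD than in FeAAD, where 0 were called otherwise, and added Thbs1 in MaNonAD against MaCon. Over 840 single-gene values under other settings 0 called values were reversed, 6 uncalled ones changed sign and 14 newly passed the threshold, 6 of them only because the 2-fold limit was dropped. With 1 mouse left out, of 2400 values 0 called ones were reversed, 113 uncalled ones changed sign, 12 calls were lost, 13 gained and 8 moved. The causes were not tested.

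Blocking on the replicate number, which is only a label here, gave 2, 6 and 0 calls in males (NonAD and AAD against Con, AAD against NonAD), 4, 6 and 5 in females, and 0 lower in MaAAD than FeAAD. A mouse correlated best with its own number in at most 2 cases per comparison.

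By group medians the order of groups changed for 5 of 10 genes, and Spearman's rho kept 10 of the 20 most alike genes in the top 2. With 4 mice, MaNonAD limits every comparison that uses it.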
